A study of Mus musculus with 12 samples.

Results

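The genes described here encode the pyruvate dehydrogenase complex, the enzymes of the tricarboxylic acid (TCA) cycle and nuclear-encoded subunits of the 5 complexes of the respiratory chain. They were taken as a list of 44 names, and each was matched to the array's probe sets through the platform annotation. Of these, 43 had a probe set of their own among the 22180 genes tested, and Cox6c, a subunit of complex IV, was found only on a probe set shared with other genes and has no value. The 43 comprised 4 genes of pyruvate dehydrogenase, 13 of the TCA cycle, 11 of complex I, 4 each of complexes II, III and IV, and 3 of complex V. The complex II subunits are those of succinate dehydrogenase, which also belongs to the cycle.

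Primary mouse macrophages were profiled on 12 gene expression arrays in 4 groups of 3. The groups were CD36-WT macrophages cultured alone (WT macrophage), CD36-WT macrophages cultured for 72 h with 5TGM1 cells (WT TAM), CD36-KO macrophages cultured alone (KO macrophage) and CD36-KO macrophages cultured for 72 h with 5TGM1 cells (KO TAM). 5TGM1 is a mouse multiple myeloma cell line, and the co-cultured cells are the study's model of tumour-associated macrophages (TAMs). CD36 is a scavenger receptor that takes up fatty acids and oxidised lipoproteins. The labels give no strain, age, sex or tissue of origin, and do not say whether Cd36 was lost in all cells. Nor do they say whether the 3 arrays of a group are separate animals or cultures, so these may be technical or biological replicates. The p-values measure only the spread between arrays within groups, estimated over all 12 arrays. Arrays are named below by group and number, for example WT TAM 2.

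Pyruvate dehydrogenase turns pyruvate into acetyl-CoA, which citrate synthase joins to oxaloacetate. The cycle then oxidises the carbon in steps that yield NADH and, at succinate dehydrogenase, reduced ubiquinone. Complexes I and II pass these electrons to ubiquinone, complex III hands them to cytochrome c, complex IV reduces oxygen, and complex V makes ATP from the resulting proton gradient. In macrophages the cycle is known to be interrupted after inflammatory activation, when citrate, itaconate and succinate accumulate, while alternatively activated macrophages rely on an intact cycle and respiration. The 13 subunits encoded by mitochondrial DNA were not analysed here.

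Values below are log2 of the authors' robust multi-array average (RMA) intensity, so 1 unit is a doubling of signal. Levels are compared only within a gene, since probe sets differ in how brightly they bind. The level of Cd36 itself spanned 12.10 to 12.53 in WT groups and 8.45 to 9.66 in KO groups. Of 10 macrophage markers tested, Adgre1 (12.16 to 12.83) and Cd68 (12.05 to 13.07) were high on every array. Single markers moved both ways. After co-culture 2 of the 10 were called higher and 4 lower in WT cells (-2.07 to 1.08), against 5.89% and 5.66% of all genes. In KO cells 4 were called higher and 2 lower (-0.83 to 1.40), against 2.90% and 3.63% of all genes. In KO against WT macrophages, 1 of the 10 was called higher and 1 lower, against 5.19% and 6.13% of all genes. In KO against WT TAMs, 3 were called higher (up to 1.61) and 0 lower, against 5.03% and 7.19% of all genes. The change with co-culture differed between genotypes for Fcgr1 (KO minus WT 1.16, SE 0.12, adjusted p = 0.00366 by limma). Of 15 plasma cell genes tested, Jchain (3.28 to 3.84) and Tnfrsf17 (3.35 to 4.09), which are defining ones, were low on every array, while Xbp1 (9.66 to 10.21) and Slamf7 (11.78 to 12.56) were high on every array. The mean of the list spanned 6.37 to 6.42 on the WT and 6.27 to 6.39 on the KO macrophage arrays, and 5.75 to 5.98 on the WT and 5.92 to 6.30 on the KO TAM arrays. None of it was called higher after co-culture; Fcrl5 (-4.42), Cd79b (-1.82), Derl3 (-0.89) and Xbp1 (-0.33) were called lower in WT TAMs than in WT macrophages, Xbp1 (-0.41) in KO TAMs than in KO macrophages, and Sdc1 (-1.19) and Derl3 (-0.77) in KO than in WT macrophages, on the log2 scale. Cd79b (1.498, with overlapping groups) and Slamf7 (0.38) were called higher in KO than in WT TAMs. Markers of T and NK cells (9 genes tested) and of neutrophils (10) averaged 4.01 to 4.57 and 4.08 to 4.65 over the arrays, but single markers differed more. Of T and NK markers, 1 was called higher in KO macrophages (11.1% against 5.19% of all genes) and 1 in KO TAMs (11.1% against 5.03%) than in WT. Their differences reached 2.14 and 2.06. In WT TAMs 1 was higher than in WT macrophages (11.1% against 5.89%, up to 1.11). Of neutrophil markers, 1 was lower in KO than in WT macrophages (10.0% against 6.13%, down to -3.43). WT and KO arrays also differed in sex-linked genes: Xist read 11.08 to 11.32 on WT and 3.91 to 4.35 on KO arrays, and the Y-linked Eif2s3y 3.33 to 4.10 on WT and 9.23 to 9.44 on KO arrays, so genotype and sex cannot be told apart. WT TAM 2 lay more than 1 log2 unit from the mean of the other 2 arrays of its group in 414 genes, KO TAM 1 in 550 and KO TAM 3 in 303. The listed genes varied little within groups, with a median SD of 0.047 in KO macrophages, 0.063 in WT macrophages, 0.080 in KO TAMs and 0.086 in WT TAMs, against 0.096 to 0.14 over all genes.

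**Figure D1:**
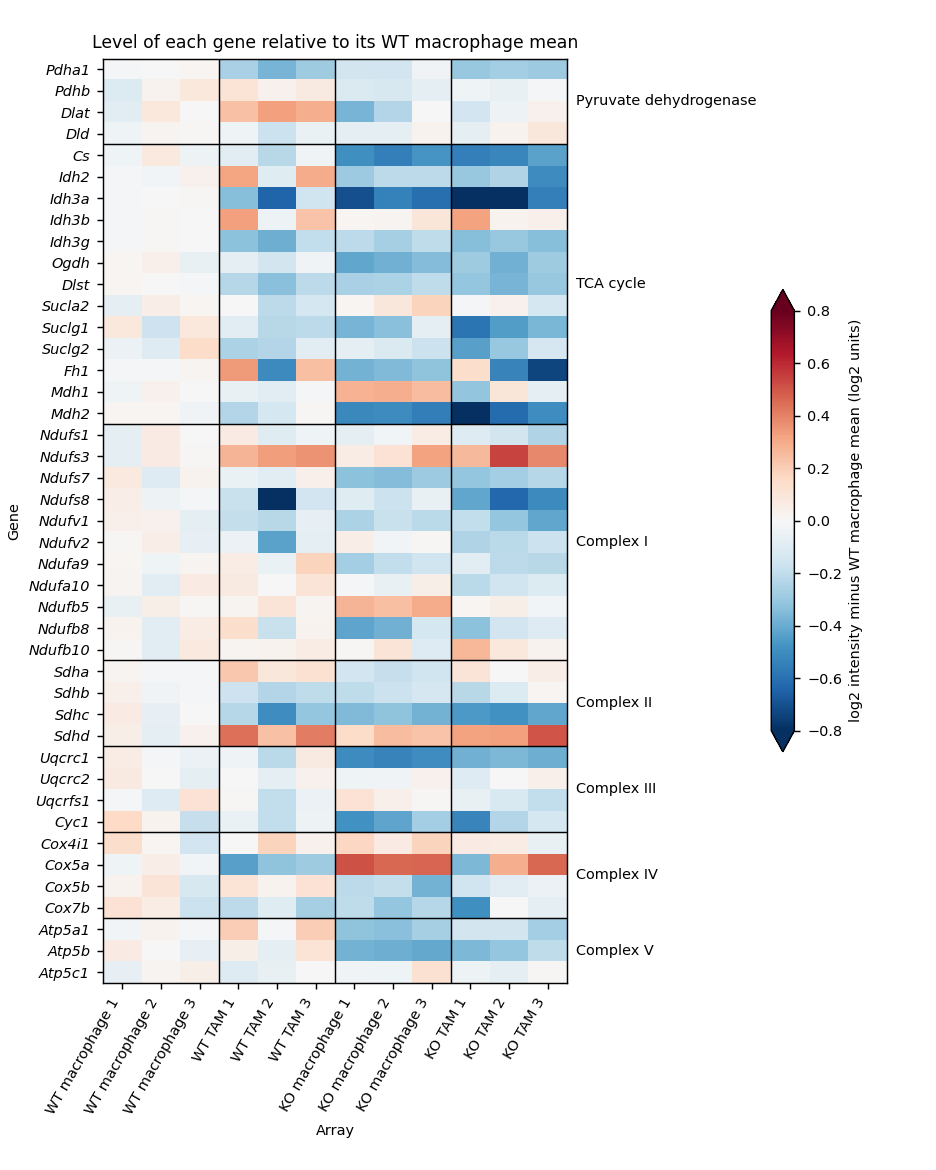
Level of each of the 43 genes (rows, by complex) on each of the 12 arrays (columns), as log2 intensity minus the gene's WT macrophage mean; blue is lower, red is higher, and colour is clipped at 0.8 log2 units. Cs, Mdh2, Ogdh, Uqcrc1 and Atp5b are blue on all 6 KO arrays.

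Of the 44 listed genes, 36 have a promoter in the RefSeq table (GRCm38.p6), which gives 250 bases before to 50 after each transcription start. The motifs of 4 factors known to drive nuclear-encoded mitochondrial genes were searched on both strands of these 300-base windows. The NRF1 motif GCGCNTGCG stood in the promoters of 10 of the 36 genes (27.8%), against 7.12% of the 27025 genes in the table. The YY1 motif AANATGGCG stood in 5 (13.9% against 2.76%), the GABP motif CCGGAAG, shared by ETS factors, in 7 (19.4% against 9.93%) and the ERR alpha motif TNAAGGTCA in 1 (2.78% against 1.43%). These shares describe the letters of the list and were not tested. The 4 promoters printed here belong to genes that were lower in KO than in WT arrays in both cultures, as described below; all lie on the + strand of GRCm38.p6, and capitals mark motif matches.
Atp5b at chr10:128083057-128083356: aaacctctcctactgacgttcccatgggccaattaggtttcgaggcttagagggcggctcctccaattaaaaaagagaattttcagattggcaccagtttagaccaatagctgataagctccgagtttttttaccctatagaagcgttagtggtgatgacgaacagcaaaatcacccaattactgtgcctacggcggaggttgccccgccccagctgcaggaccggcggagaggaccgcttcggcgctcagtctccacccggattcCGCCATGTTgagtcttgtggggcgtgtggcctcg
Cs at chr10:128337477-128337776: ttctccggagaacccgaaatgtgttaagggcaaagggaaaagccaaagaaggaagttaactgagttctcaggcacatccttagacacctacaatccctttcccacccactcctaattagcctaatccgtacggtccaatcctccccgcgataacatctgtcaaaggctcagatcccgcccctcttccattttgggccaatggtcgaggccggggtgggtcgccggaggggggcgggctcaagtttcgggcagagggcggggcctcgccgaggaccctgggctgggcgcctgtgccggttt
Mdh2 at chr5:135778399-135778698: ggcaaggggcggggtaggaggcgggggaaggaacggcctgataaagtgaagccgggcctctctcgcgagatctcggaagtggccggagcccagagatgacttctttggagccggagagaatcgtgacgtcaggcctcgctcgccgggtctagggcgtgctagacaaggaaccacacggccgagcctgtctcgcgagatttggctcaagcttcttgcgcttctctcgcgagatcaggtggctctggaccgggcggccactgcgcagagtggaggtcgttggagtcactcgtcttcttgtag
Uqcrc1 at chr9:108936398-108936697: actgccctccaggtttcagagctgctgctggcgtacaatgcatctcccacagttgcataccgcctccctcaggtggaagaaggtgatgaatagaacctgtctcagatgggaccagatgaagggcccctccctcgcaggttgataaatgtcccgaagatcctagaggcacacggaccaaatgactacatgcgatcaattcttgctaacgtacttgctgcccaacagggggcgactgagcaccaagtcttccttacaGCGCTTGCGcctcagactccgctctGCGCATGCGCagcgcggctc
The Atp5b promoter held 1 YY1 match, on the minus strand, whose first base is number 17 counted from the start site. Uqcrc1 held 3 NRF1 matches, beginning at bases 6, 31 and 32, of which the last 2 overlap on opposite strands. The windows of Cs and Mdh2 held none of the 4 motifs. Among all 8 genes lower in KO arrays in either culture that have a promoter in the table, 2 held NRF1 and 3 held YY1. These were 25.0% and 37.5%, against 7.12% and 2.76% of all genes in the table. None held the GABP or ERR alpha motif (9.93% and 1.43% of all genes). A gene counted, here and above, if any of its promoters held the motif. Ogdh, among the 8, has 6 promoters, of which 2 held NRF1 and 2 held YY1. These shares were not tested.

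The first comparison asked how macrophages without CD36 differ from WT macrophages when both are cultured alone. Here 9 of the 43 genes were lower in KO macrophages and 1 was higher at an adjusted p under 0.05 (limma, Benjamini-Hochberg over all 22180 genes). The 9 were 4 enzymes of the cycle (Cs, Mdh2, Ogdh, Idh3a) and 5 respiratory chain subunits (Uqcrc1, Atp5b, Atp5a1, Ndufs7, Sdhc), and their levels were 1.24-fold to 1.53-fold lower. The gene that was higher was Ndufb5, a complex I subunit. The lower calls made up 20.9% of the list, where 6.13% of all genes were called lower; the higher call made up 2.33%, where 5.19% of all genes were called higher. Since the listed genes are brighter than most, the share was also taken among the 9161 genes whose mean level reached that of the dimmest listed gene (6.01), of which 12.1% were called lower and 9.81% higher. The 3 KO arrays all lay below the 3 WT arrays for 23 of the 43 genes (53.5%; 17.7% of all genes) and all above for 5 (11.6%; 20.8% of all genes). The median difference, KO minus WT, was -0.17 over the list and 0.038 over all genes.

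No pyruvate dehydrogenase gene passed the test in macrophages cultured alone, although all 4 had KO means below WT. Pdha1, the X-linked catalytic alpha subunit, differed by -0.11 ± 0.073 (log2 difference ± SE here and below; adjusted p = 0.404), and Dlat, the acetyltransferase core, by -0.20 ± 0.10 (adjusted p = 0.249). Pdhb, the beta subunit, and Dld, the dihydrolipoyl dehydrogenase shared with the oxoglutarate complex, differed by -0.11 and -0.044.

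In the cycle the genes that fell were its entry enzyme, its last enzyme and subunits of both oxidative decarboxylation steps. Cs, citrate synthase, read 10.26, 10.38 and 10.26 in WT macrophages and 9.81, 9.75 and 9.83 in KO macrophages. Every KO array was thus below every WT array, and the difference was -0.50 ± 0.081 (1.42-fold lower, adjusted p = 0.00241). Mdh2, the mitochondrial malate dehydrogenase, read 10.59, 10.59 and 10.55 in WT and 10.06, 10.08 and 10.03 in KO macrophages, again without overlap and 1.44-fold lower (-0.52 ± 0.098, adjusted p = 0.00537). Its cytosolic counterpart Mdh1, which serves the malate-aspartate shuttle, lay on the other side: it read 10.21, 10.28 and 10.24 in WT and 10.52, 10.53 and 10.49 in KO macrophages, but the difference of 0.27 ± 0.097 did not pass the test (adjusted p = 0.0992).

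Ogdh, the decarboxylating subunit of the oxoglutarate dehydrogenase complex, read 10.29, 10.31 and 10.22 in WT and 9.86, 9.89 and 9.92 in KO macrophages (-0.38 ± 0.074, 1.3-fold lower, adjusted p = 0.00658). Its partner Dlst, the succinyltransferase, also had all KO arrays below all WT arrays (9.66, 9.63 and 9.63 against 9.38, 9.39 and 9.44), with a difference of -0.24 ± 0.072 just outside the threshold (adjusted p = 0.0526). The 3 subunits of the NAD-dependent isocitrate dehydrogenase did not move alike. Idh3a, the catalytic subunit, read 9.42, 9.44 and 9.45 in WT and 8.74, 8.89 and 8.83 in KO macrophages (-0.62 ± 0.16, 1.53-fold lower, adjusted p = 0.0263). Idh3g, a regulatory subunit and X-linked, read 10.70, 10.72 and 10.71 against 10.50, 10.44 and 10.50, a difference of -0.23 ± 0.075 that did not pass (adjusted p = 0.0767). Idh3b, the other regulatory subunit, was nearly level at 11.06, 11.07 and 11.07 against 11.08, 11.09 and 11.16 (0.045 ± 0.11, adjusted p = 0.851).

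The remaining cycle genes did not pass. Idh2, the NADP-dependent mitochondrial isocitrate dehydrogenase, differed by -0.24 ± 0.11 (adjusted p = 0.225) with no overlap between groups, and Fh1, fumarase, by -0.35 ± 0.23 (adjusted p = 0.386). For succinyl-CoA synthetase, the shared alpha subunit Suclg1 differed by -0.26, the GTP-forming beta subunit Suclg2 by -0.12 and the ATP-forming beta subunit Sucla2 by 0.096.

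Within complex I, 1 of 11 subunits was lower and 1 higher. Ndufs7, which carries the iron-sulphur cluster nearest to ubiquinone, read 10.85, 10.68 and 10.81 in WT and 10.45, 10.43 and 10.48 in KO macrophages (-0.32 ± 0.078, 1.25-fold lower, adjusted p = 0.0201). Ndufb5, an accessory subunit of the membrane arm, read 7.27, 7.38 and 7.34 against 7.60, 7.57 and 7.63 (0.27 ± 0.072, 1.21-fold higher, adjusted p = 0.0307). The other 9 complex I genes ranged from -0.31 for Ndufb8 to 0.16 for Ndufs3, and their median with the 2 called genes included was -0.014. Of the 11, 7 had a difference below 0 and 4 above. All KO arrays lay below all WT arrays for 5 (45.5% against 17.7% of all genes) and above for 1 (9.09% against 20.8%).

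Complex II was split between its membrane anchors. Sdhc, the large cytochrome b subunit, read 9.79, 9.66 and 9.72 in WT and 9.37, 9.41 and 9.35 in KO macrophages (-0.35 ± 0.085, 1.27-fold lower, adjusted p = 0.0208). Sdhd, the small anchor subunit, read 9.29, 9.16 and 9.28 against 9.39, 9.49 and 9.47, with all KO arrays above all WT arrays but a difference of 0.21 ± 0.089 that did not pass (adjusted p = 0.168). The flavoprotein Sdha (-0.17 ± 0.072) and the iron-sulphur subunit Sdhb (-0.17 ± 0.080) had KO arrays below WT arrays without passing.

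In complex III, Uqcrc1, a core subunit on the matrix side, read 9.44, 9.37 and 9.34 in WT and 8.88, 8.85 and 8.89 in KO macrophages (-0.51 ± 0.084, 1.43-fold lower, adjusted p = 0.00267). The second core subunit, Uqcrc2, was level at 10.21, 10.14 and 10.06 against 10.10, 10.11 and 10.17 (-0.010 ± 0.078), and the Rieske protein Uqcrfs1 differed by 0.055. Cyc1, cytochrome c1, differed by -0.39 ± 0.12 (adjusted p = 0.058). No complex IV gene passed. Cox5a had the largest shift of the 4 and an upward one: it read 9.81, 9.90 and 9.82 in WT and 10.35, 10.30 and 10.31 in KO macrophages, but the difference of 0.48 ± 0.16 missed the threshold (adjusted p = 0.0816). Cox5b, the other nuclear subunit of that pair, pointed down (-0.26 ± 0.088, adjusted p = 0.0807), as did the X-linked Cox7b (-0.25 ± 0.13), while Cox4i1 differed by 0.13 ± 0.094.

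Both large subunits of the catalytic head of ATP synthase were lower. Atp5b, the catalytic beta subunit, read 11.56, 11.50 and 11.43 in WT and 11.12, 11.11 and 11.09 in KO macrophages (-0.39 ± 0.081, 1.31-fold lower, adjusted p = 0.00941). Atp5a1, the alpha subunit, read 11.19, 11.24 and 11.20 against 10.89, 10.88 and 10.94 (-0.31 ± 0.082, 1.24-fold lower, adjusted p = 0.0322). Atp5c1, the rotating gamma stalk, did not follow: it read 6.57, 6.65 and 6.68 in WT and 6.61, 6.60 and 6.76 in KO macrophages (0.020 ± 0.078).

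Over 10 other settings of the analysis the count of lower calls was 8 to 16, and when single arrays were left out it was 5 to 7. The count over all genes moved as well, from 1360 to between 1192 and 2488 over these settings. With single arrays left out it was 767 to 838. Cs, Mdh2, Ogdh, Uqcrc1 and Atp5b kept their calls when any single array was left out. The others did not: adjusted p reached 0.0915 for Idh3a, 0.106 for Atp5a1 and 0.116 for Ndufb5, which were lost without any 1 of the 6 macrophage arrays, and 0.0851 for Sdhc and 0.0855 for Ndufs7, which were lost without any of them except WT macrophage 2. Genes of proliferation moved with the genotype on the same arrays: 14 of 16 were called lower in KO macrophages (87.5% against 6.13% of all genes). Their mean level was 8.65 to 8.72 on WT and 7.48 to 7.55 on KO macrophage arrays. Stromal markers did so too, with 8 of 14 called lower (57.1% against 6.13%), Col1a1, Col1a2, Sparc and Postn among them. Their means were 7.24 to 7.37 on WT and 5.49 to 5.52 on KO macrophage arrays. The part of either list, or of sex, in the differences above was not tested. In bulk RNA, fewer cells of a kind and less RNA of these genes per cell cannot be told apart.

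**Figure D2:**
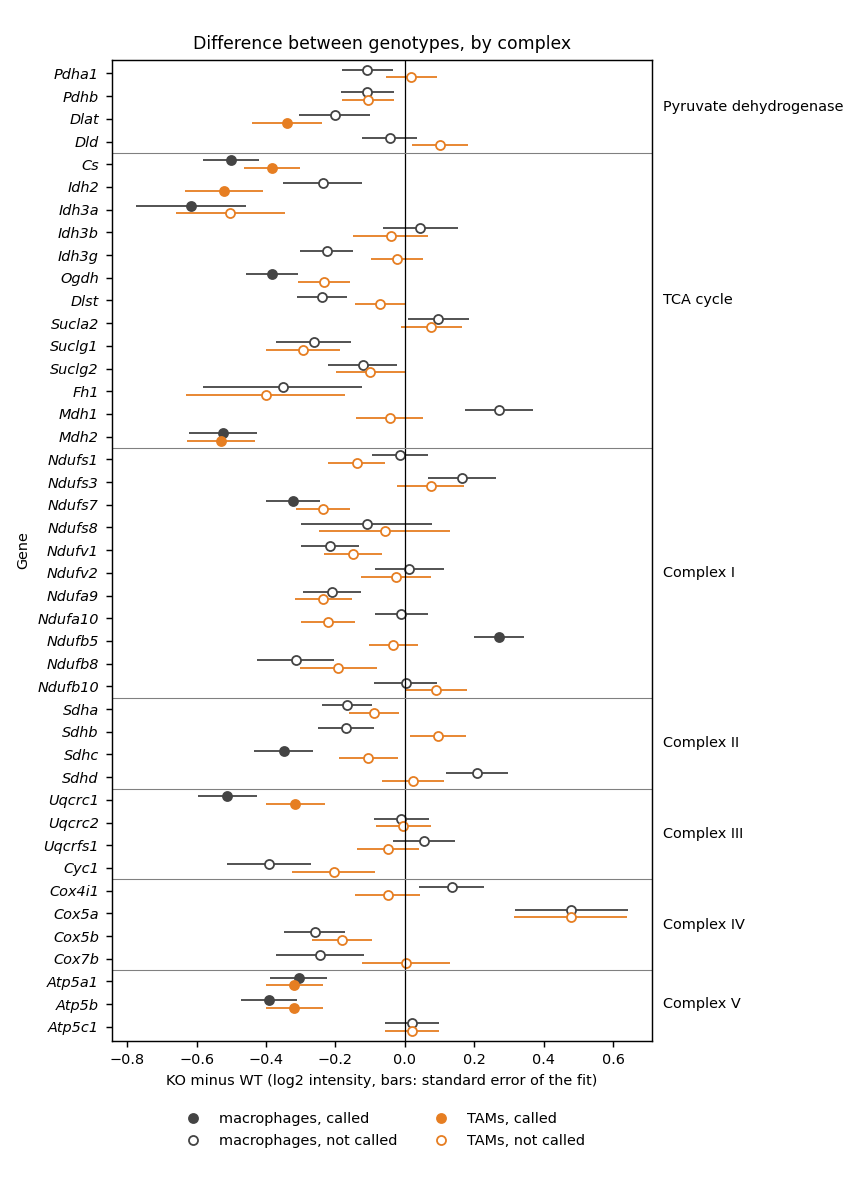
Difference between KO and WT arrays for each of the 43 genes (rows, by complex), in macrophages cultured alone (dark) and in TAMs (orange), in log2 units with the standard error of the fit as bars; filled points passed an adjusted p under 0.05. Filled points in both cultures are Cs, Mdh2, Uqcrc1, Atp5a1 and Atp5b, all left of 0.

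The second comparison put KO TAMs against WT TAMs. Its means come from other arrays than those of the first, but the spread behind its calls was estimated over all 12 arrays: with the 6 TAM arrays fitted alone, all 7 calls below were lost (adjusted p from 0.0730 for Mdh2 to 0.166 for Uqcrc1, limma). In the fit of all arrays 7 of the 43 genes were lower in KO TAMs and none was higher. They were the cycle enzymes Mdh2, Cs and Idh2, the pyruvate dehydrogenase core Dlat, and the subunits Uqcrc1, Atp5b and Atp5a1, at levels 1.24-fold to 1.45-fold lower. The lower calls were 16.3% of the list, where 7.19% of all genes and 13.2% of the genes at least as bright as the dimmest listed gene were called lower; 5.03% of all genes were called higher. The share of lower calls was thus near that of genes of like brightness. Without an adjustment, 13 of the genes were lower (30.2%; 12.9% of all genes) and 1 higher (2.33%; 12.2% of all genes) at a p under 0.05. The 3 KO TAM arrays lay below the 3 WT TAM arrays for 15 genes (34.9%; 11.8% of all genes) and above for none (12.8% of all genes). The median difference was -0.100 over the list and 0.024 over all genes.

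Dlat, the acetyltransferase of pyruvate dehydrogenase, read 7.89, 7.98 and 7.94 in WT TAMs and 7.50, 7.61 and 7.69 in KO TAMs (-0.34 ± 0.10, 1.27-fold lower, adjusted p = 0.0496). The groups did not overlap, and the p stood at the threshold. Pdha1 was level between genotypes in TAMs (9.19, 9.08 and 9.17 against 9.15, 9.18 and 9.16, 0.018 ± 0.073).

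Among cycle enzymes, Mdh2 read 10.35, 10.44 and 10.59 in WT TAMs and 9.74, 9.96 and 10.08 in KO TAMs (-0.53 ± 0.098, 1.45-fold lower, adjusted p = 0.00445). Cs read 10.21, 10.08 and 10.27 against 9.75, 9.78 and 9.87 (-0.38 ± 0.081, 1.3-fold lower, adjusted p = 0.00954). Neither gene's groups overlapped, and the sizes were close to those in macrophages cultured alone. Idh2, which regenerates mitochondrial NADPH, read 9.27, 8.86 and 9.25 in WT TAMs and 8.65, 8.71 and 8.45 in KO TAMs (-0.52 ± 0.11, 1.44-fold lower, adjusted p = 0.0111). WT TAM 2 was the low array of its group for this gene, yet stood above every KO array. Idh3a read 9.10, 8.80 and 9.28 against 8.21, 8.57 and 8.89, so that KO TAM 3 overlapped the WT range, and its difference of -0.50 ± 0.16 did not pass (adjusted p = 0.0597). Ogdh read 10.19, 10.13 and 10.25 against 9.99, 9.89 and 9.99 without overlap (-0.23 ± 0.074, adjusted p = 0.0639). Idh3b read 11.39, 11.02 and 11.30 in WT TAMs and 11.39, 11.09 and 11.11 in KO TAMs, with overlapping groups.

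Fumarase was the least even cycle gene among TAM arrays. Fh1 read 9.29, 8.44 and 9.19 in WT TAMs and 9.09, 8.42 and 8.21 in KO TAMs, a range of nearly 1 log2 unit within each group, and its difference of -0.40 ± 0.23 did not pass (adjusted p = 0.313).

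In the respiratory chain, Uqcrc1 read 9.35, 9.17 and 9.45 in WT TAMs and 8.998, 9.03 and 8.996 in KO TAMs (-0.32 ± 0.084, 1.24-fold lower, adjusted p = 0.0298). Atp5b read 11.54, 11.42 and 11.60 against 11.13, 11.18 and 11.29 (-0.32 ± 0.081, 1.25-fold lower, adjusted p = 0.0242). Atp5a1 read 11.40, 11.20 and 11.41 against 11.06, 11.06 and 10.93 (-0.32 ± 0.082, 1.25-fold lower, adjusted p = 0.0254). For all 3 the KO arrays lay below the WT arrays. Ndufs7 read 10.72, 10.69 and 10.82 against 10.47, 10.50 and 10.55, also without overlap, but its difference of -0.24 ± 0.078 did not pass (adjusted p = 0.0727). None of the 4 complex II genes differed beyond the test, and Sdhc, lower in KO macrophages, read 9.50, 9.23 and 9.42 in WT TAMs and 9.27, 9.24 and 9.31 in KO TAMs (-0.11 ± 0.085). Cox5a again pointed up (9.41, 9.52 and 9.55 against 9.48, 10.13 and 10.30), but KO TAM 1 lay within the WT range and the difference of 0.48 ± 0.16 did not pass (adjusted p = 0.0807).

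Cs, Mdh2, Uqcrc1, Atp5a1 and Atp5b, among the 9 genes lower in macrophages and the 7 lower in TAMs, were called lower in both genotype comparisons. Over the whole list, 27 genes had KO means below WT in both cultures, 6 above in both and 10 on opposite sides. Neither overlap was counted over all genes, so neither sets the list apart from other genes. Both comparisons share the spread estimated over all 12 arrays, and in both genotype cannot be told apart from sex. Only Cs, Idh2 and Mdh2 of the 7 TAM calls held without any single array. Adjusted p reached 0.113 for Dlat, lost without any 1 of the 6 TAM arrays; 0.109 for Uqcrc1 and 0.0940 for Atp5a1, both lost without WT TAM 1, WT TAM 3, KO TAM 2 or KO TAM 3; and 0.0866 for Atp5b, lost without WT TAM 1, WT TAM 3 or KO TAM 2. Without WT TAM 2 and KO TAM 1 there were 12 lower calls, while lower calls over all genes went from 1594 to 2611. All 16 proliferation genes were called lower in KO TAMs (100% against 7.19% of all genes), with means of 8.44 to 9.38 on WT and 6.89 to 7.35 on KO TAM arrays. So were 10 of 14 stromal markers (71.4% against 7.19%), with means of 7.71 to 8.78 and 5.86 to 7.25. The part of either list was not tested.

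**Figure D3:**
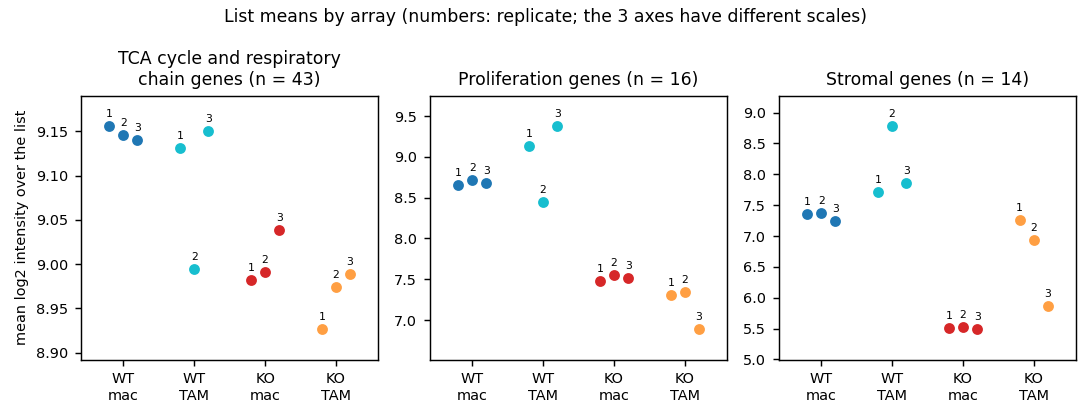
Mean log2 intensity on each array (points, numbered by replicate) over the 43 TCA cycle and respiratory chain genes, 16 proliferation genes and 14 stromal markers, each panel with its own axis. The listed genes span 8.93 to 9.16 over the 12 arrays, and WT TAM 2 lies apart from WT TAM 1 and 3 in all panels.

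**Figure D4:**
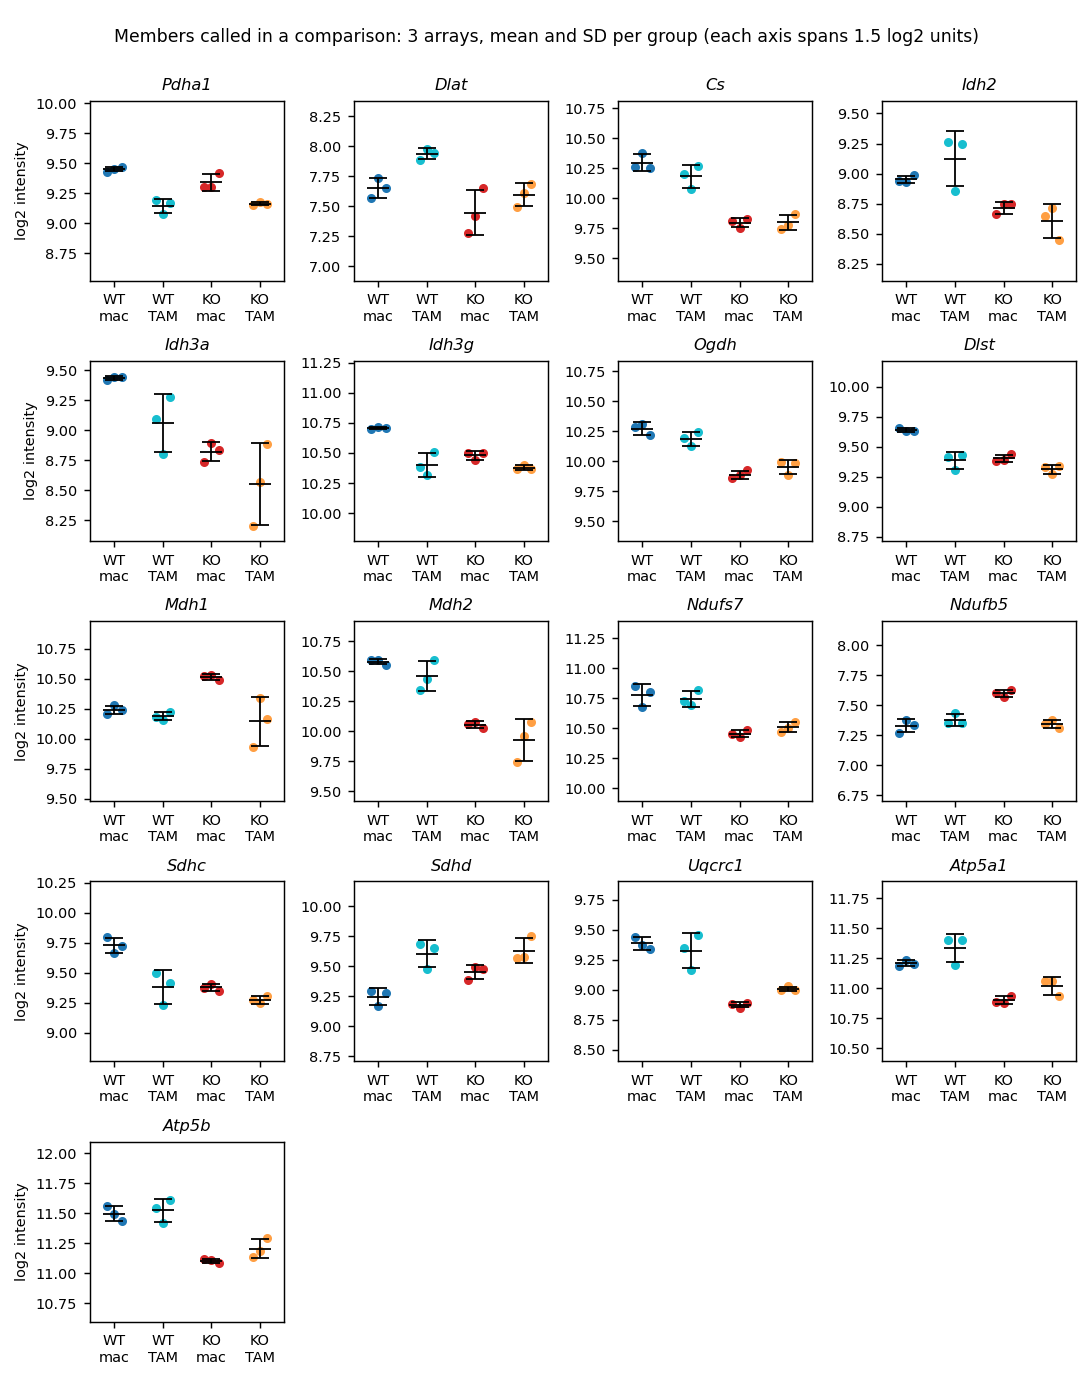
Log2 intensity of the 17 genes called in at least 1 comparison, with the 3 arrays (points), mean and SD (bars) of each group; every axis spans 1.5 log2 units. Cs, Mdh2, Uqcrc1, Atp5a1 and Atp5b separate by genotype, Pdha1, Idh3g and Dlst are highest in WT macrophages, and Mdh1 and Ndufb5 are highest in KO macrophages.

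The third comparison asked what 72 h with myeloma cells did to these genes in WT macrophages. In WT TAMs 4 of the 43 genes were lower and 1 was higher than in WT macrophages, with folds of 1.19 to 1.28. The lower genes were Pdha1, Idh3g, Dlst and Sdhc, each a subunit of a different enzyme, and the higher gene was Sdhd. The shares were 9.30% lower and 2.33% higher, against 5.66% and 5.89% of all genes and 11.7% and 11.6% of the genes at least as bright, so the list was called no more often than genes of its brightness. The TAM arrays lay below the macrophage arrays for 8 genes (18.6%; 14.6% of all genes) and above for 4 (9.30%; 15.5% of all genes). The median difference, TAM minus macrophage, was -0.056 over the list and 0.0077 over all genes.

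Pdha1 read 9.43, 9.45 and 9.47 in WT macrophages and 9.19, 9.08 and 9.17 in WT TAMs (-0.31 ± 0.073, 1.24-fold lower, adjusted p = 0.0182). Idh3g fell from 10.70, 10.72 and 10.71 to 10.38, 10.32 and 10.51 (-0.30 ± 0.075, 1.24-fold, adjusted p = 0.0211). Dlst fell from 9.66, 9.63 and 9.63 to 9.42, 9.31 and 9.43 (-0.26 ± 0.072, 1.19-fold, adjusted p = 0.039). For all 3 genes every TAM array lay below every macrophage array. Dlat, the neighbour of Pdha1 in its complex, read 7.57, 7.73 and 7.65 in WT macrophages and 7.89, 7.98 and 7.94 in WT TAMs, higher on every array, but its difference of 0.29 ± 0.10 did not pass (adjusted p = 0.101).

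The complex II anchors moved apart. Sdhc read 9.79, 9.66 and 9.72 in WT macrophages and 9.50, 9.23 and 9.42 in WT TAMs (-0.35 ± 0.085, 1.27-fold lower, adjusted p = 0.0208), while Sdhd read 9.29, 9.16 and 9.28 against 9.68, 9.48 and 9.65 (0.36 ± 0.089, 1.28-fold higher, adjusted p = 0.0209). Sdha read 10.41, 10.38 and 10.37 against 10.60, 10.48 and 10.51 (0.14 ± 0.072), and Sdhb read 9.18, 9.11 and 9.13 against 8.97, 8.90 and 8.93 (-0.20 ± 0.080); neither passed, although their groups did not overlap. No gene of complexes I, III, IV or V passed in this comparison. Among them Ndufs8, an iron-sulphur subunit of complex I, read 9.56, 9.47 and 9.50 in WT macrophages and 9.33, 8.46 and 9.36 in WT TAMs; WT TAM 2 stood far below the other TAM arrays and the difference of -0.46 ± 0.19 did not pass (adjusted p = 0.158). Ndufs3, another iron-sulphur protein subunit, read 5.71, 5.85 and 5.80 against 6.06, 6.12 and 6.14 (0.32 ± 0.097, adjusted p = 0.0543).

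All 5 calls were lost without at least 1 array. Adjusted p reached 0.0687 for Pdha1 without WT macrophage 3 (lost without any 1 WT macrophage array), 0.0697 for Idh3g (lost without any but WT TAM 3), 0.118 for Dlst (lost without any of the 6), 0.0877 for Sdhc (lost without WT macrophage 1, WT macrophage 3 or WT TAM 2) and 0.0880 for Sdhd (lost without any but WT TAM 2). Stromal markers moved with co-culture on the same arrays: 12 of 14 had higher means in WT TAMs, 2 of them called (14.3% against 5.89% of all genes). Their median difference was 0.85, with list means of 7.24 to 7.37 in WT macrophages and 7.71 to 8.78 in WT TAMs. All 16 proliferation genes had higher means in WT TAMs, 2 of them called (12.5% against 5.89%), with a median difference of 0.30. The part of either list was not tested.

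The fourth comparison made the same contrast in cells without CD36. In KO TAMs 1 of the 43 genes was lower than in KO macrophages and none was higher, that is 2.33% and 0%, against 3.63% and 2.90% of all genes and 7.54% and 6.35% of the genes at least as bright. At an unadjusted p under 0.05, 4 genes were lower (9.30%; 11.1% of all genes) and 2 higher (4.65%; 9.04% over all). The groups did not overlap for 12 genes that were lower in TAMs (27.9%; 14.6% of all genes) and 6 that were higher (14.0%; 11.7% of all genes). The median difference was -0.025 over the list and -0.013 over all genes.

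The gene that fell was Mdh1, the cytosolic malate dehydrogenase, at 10.52, 10.53 and 10.49 in KO macrophages and 9.93, 10.34 and 10.17 in KO TAMs (-0.37 ± 0.097, 1.29-fold lower, adjusted p = 0.0439). KO TAM 1 was the lowest of the 3 TAM arrays, and the call was lost without any array of the comparison except KO TAM 2 (adjusted p up to 0.131). In WT cells the same gene was level, at 10.21, 10.28 and 10.24 in macrophages and 10.18, 10.16 and 10.23 in TAMs (-0.053 ± 0.097). Ndufb5 read 7.60, 7.57 and 7.63 in KO macrophages and 7.35, 7.38 and 7.31 in KO TAMs, with no overlap and a difference of -0.26 ± 0.072 just outside the threshold (adjusted p = 0.0567). Pdha1 (9.30, 9.30 and 9.42 in KO macrophages against 9.15, 9.18 and 9.16 in KO TAMs, -0.18 ± 0.073), Idh3g (-0.10 ± 0.075), Dlst (-0.089 ± 0.072) and Sdhc (-0.10 ± 0.085) lay on the side seen in WT cells, with smaller differences that did not pass. All 14 stromal markers had higher means in KO TAMs than in KO macrophages, 4 of them called (28.6% against 2.90% of all genes), with a median difference of 1.22. Of 16 proliferation genes, 15 had lower means, 1 of them called (6.25% against 3.63%), with a median difference of -0.34. The part of either list was not tested.

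**Figure D5:**
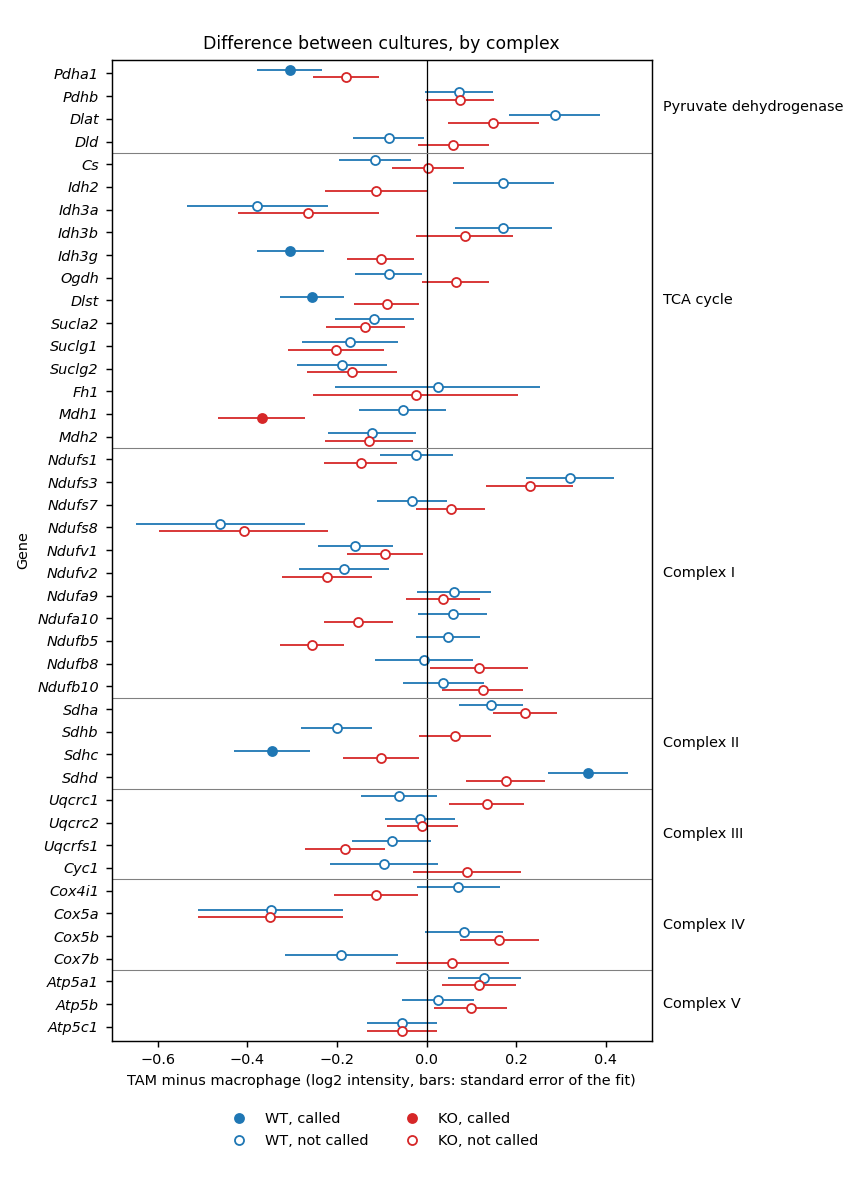
Difference between TAM and macrophage arrays for each of the 43 genes (rows, by complex), in WT (blue) and KO cells (red), in log2 units with the standard error of the fit as bars; filled points passed an adjusted p under 0.05. Filled points are Pdha1, Idh3g, Dlst, Sdhc and Sdhd in WT cells and Mdh1 in KO cells.

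Whether the response to co-culture depended on genotype was tested as the KO difference minus the WT difference. None of the 43 genes passed by limma after adjustment; 0.104% of all genes were called higher and 0.0902% lower, 43 genes in all. At an unadjusted p under 0.05 there were 3 (6.98%; 9.60% of all genes): Ndufb5 (-0.30 ± 0.10, adjusted p = 0.331), Mdh1 (-0.31 ± 0.14, adjusted p = 0.495) and Sdhb (0.27 ± 0.11, adjusted p = 0.488). A call in 1 genotype and not in the other, as for Pdha1 or Mdh1, is therefore no measured difference between genotypes. The standard errors of this contrast ran from 0.10 for Dlst to 0.32 for Fh1.

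Beyond the listed subunits, the other nuclear-encoded subunits of complexes I, III, IV and V were examined, so that with the listed chain genes 73 were tested. Of these 73, 8 were lower (11%; 6.13% of all genes) and 3 higher (4.11%; 5.19%) in KO macrophages, and 4 lower (5.48%; 7.19%) and 2 higher (2.74%; 5.03%) in KO than in WT TAMs. Co-culture lowered 3 (4.11%; 5.66%) and raised 2 (2.74%; 5.89%) in WT cells, and lowered 3 (4.11%; 3.63%) and raised 1 (1.37%; 2.90%) in KO cells. Apart from the lower calls between macrophages, these shares were near or below those of all genes. Of the genes at least as bright as the dimmest listed gene, 12.1% were called lower between macrophages, so the 11% was not above them. The 8 lower calls there include the listed Uqcrc1, Atp5b, Atp5a1, Ndufs7 and Sdhc. Of the added subunits, 0 of 21 were lower in complex I and 0 of 5 in complex III. In complex IV 1 of 7 was lower, and in complex V 2 of 14 (6.13% of all genes). Uqcrh, the hinge protein of complex III, was called in all 4 comparisons. It read 7.90, 7.69 and 7.69 in WT macrophages, 7.41, 7.38 and 7.05 in WT TAMs, 8.20, 8.32 and 8.32 in KO macrophages and 7.65, 7.63 and 7.67 in KO TAMs. It was thus higher without CD36 (0.52 ± 0.11 in macrophages, adjusted p = 0.00855; 0.37 ± 0.11 in TAMs, adjusted p = 0.0383), opposite to Uqcrc1 of the same complex, and lower after co-culture (-0.48 ± 0.11 in WT, adjusted p = 0.011; -0.63 ± 0.11 in KO, adjusted p = 0.00497). The TAM genotype call was lost without WT TAM 3 or any KO TAM array (adjusted p up to 0.127), and the WT co-culture call without WT macrophage 1 (0.0568).

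Ndufa6, an accessory subunit of complex I, read 8.57, 8.35 and 8.44 in WT and 9.07, 9.09 and 9.03 in KO macrophages (0.61 ± 0.085, adjusted p = 0.00117), and 8.61, 8.68 and 8.54 in KO TAMs, below KO macrophages (-0.45 ± 0.085, adjusted p = 0.00954). Atp5d, the delta subunit of ATP synthase, read 7.63, 7.71 and 7.76 in WT and 7.22, 7.11 and 7.27 in KO macrophages (-0.50 ± 0.076, adjusted p = 0.00174), on the same side as Atp5a1 and Atp5b. These calls held without any single array. Co-culture raised Cox8a of complex IV in WT cells (0.36 ± 0.076, adjusted p = 0.00976). Atpif1, the inhibitor that blocks ATP hydrolysis by complex V, was lower in KO macrophages (-0.44 ± 0.098, adjusted p = 0.0134), a call lost without WT macrophage 1, WT macrophage 3 or KO macrophage 2 (up to 0.0588).

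Assembly factors were called about as often as all genes, or less. Of 40 tested, 3 were higher (7.50%; 5.19% of all genes) and 1 lower (2.50%; 6.13%) in KO macrophages, and 1 was higher (2.50%; 5.03%) in KO TAMs than in WT TAMs. Co-culture raised 1 (2.50%; 5.89%) and lowered 1 (2.50%; 5.66%) in WT cells, and lowered 2 in KO cells (5.00%; 3.63%). Sdhaf3, which helps to insert the iron-sulphur clusters of succinate dehydrogenase, read 5.94, 5.997 and 6.08 in WT and 6.74, 6.67 and 6.52 in KO macrophages (0.64 ± 0.099, adjusted p = 0.00196). Nubpl, an iron-sulphur protein needed to assemble complex I, read 6.32, 5.999 and 6.18 against 6.71, 6.89 and 6.86 (0.65 ± 0.13, adjusted p = 0.0063). Tmem126b, a complex I assembly factor, read 7.77, 7.76 and 7.61 in WT macrophages and 8.18, 8.47 and 8.40 in WT TAMs (0.63 ± 0.093, adjusted p = 0.00113). All 3 calls held without any single array.

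Of 24 genes tested that feed or drain the cycle, 4 were lower in KO macrophages (16.7%; 6.13% of all genes) and 5 in KO TAMs (20.8%; 7.19%), and none was higher in either (5.19% and 5.03% of all genes). Co-culture raised 4 (16.7%; 5.89%) and lowered 4 (16.7%; 5.66%) in WT cells, and raised 1 (4.17%; 2.90%) and lowered 1 (4.17%; 3.63%) in KO cells. Me1, the cytosolic malic enzyme that makes NADPH, read 8.38, 8.45 and 8.44 in WT and 6.95, 7.07 and 7.23 in KO macrophages (-1.34 ± 0.26, 2.53-fold lower, adjusted p = 0.00609). In TAMs it read 7.25, 8.50 and 7.29 with and 6.54, 6.46 and 6.24 without CD36 (-1.26 ± 0.26, adjusted p = 0.00775), with WT TAM 2 well above the other WT TAM arrays. The mitochondrial malic enzyme Me2 was lower in KO macrophages as well (8.81, 8.89 and 8.80 against 8.35, 8.36 and 8.36, -0.48 ± 0.11, adjusted p = 0.0129), though this call was lost without WT macrophage 2 (0.0561).

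Got2, the mitochondrial aspartate aminotransferase of the malate-aspartate shuttle, read 9.70, 9.71 and 9.73 in WT macrophages, 9.30, 9.36 and 9.36 in KO macrophages, 9.97, 9.93 and 10.11 in WT TAMs and 9.41, 9.37 and 9.17 in KO TAMs. It was lower without CD36 in macrophages (-0.38 ± 0.085, adjusted p = 0.0144) and in TAMs (-0.69 ± 0.085, adjusted p = 0.000436); both calls rest on its brightest probe set and were lost with the mean over its probe sets, and the macrophage call also without WT macrophage 3 or KO macrophage 1 (up to 0.0578). Pdk1, a kinase that inactivates pyruvate dehydrogenase, read 7.55, 7.23 and 7.27 in WT TAMs and 6.83, 6.55 and 6.30 in KO TAMs (-0.79 ± 0.14, 1.73-fold lower, adjusted p = 0.00387). Pdk4, the kinase known to be induced by fatty acids, was uneven, at 6.66, 8.84 and 7.08 in WT TAMs and 6.33, 5.71 and 4.73 in KO TAMs (-1.94 ± 0.49, adjusted p = 0.0234), and its call was lost without KO TAM 2 or KO TAM 3 (up to 0.0907).

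Co-culture changed Pck2 and Idh1 in both genotypes. Pck2, the mitochondrial phosphoenolpyruvate carboxykinase that draws on oxaloacetate, read 8.52, 8.50 and 8.46 in WT macrophages and 7.47, 7.89 and 7.43 in WT TAMs (-0.90 ± 0.16, adjusted p = 0.00324), and 7.86, 7.84 and 7.98 against 6.75, 7.28 and 7.38 in KO cells (-0.76 ± 0.16, adjusted p = 0.0156). Idh1, the cytosolic isocitrate dehydrogenase, rose from 10.09, 10.21 and 10.20 to 10.78, 10.83 and 10.67 in WT cells (0.59 ± 0.11, adjusted p = 0.00564) and from 10.28, 10.27 and 10.33 to 11.11, 10.61 and 10.77 in KO cells (0.54 ± 0.11, adjusted p = 0.0164). Both KO calls were lost without any 1 KO macrophage array (up to 0.0667 for Pck2 and 0.0656 for Idh1). Acod1, which makes itaconate from aconitate, read 10.07, 10.11 and 10.03 in WT macrophages and 7.37, 8.74 and 7.82 in WT TAMs (-2.10 ± 0.53, 4.28-fold lower, adjusted p = 0.0231). The TAM arrays differed among themselves by over 1 log2 unit, as did those of KO TAMs (7.29, 8.54 and 10.07), and the call was lost without WT TAM 1, WT TAM 3 or any WT macrophage array (up to 0.0911).

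Of 20 genes of electron carriers, ubiquinone synthesis and metabolite exchange, 2 were lower (10.0%; 6.13% of all genes) and 1 higher (5.00%; 5.19%) in KO macrophages, and 3 lower (15%; 7.19%) and 2 higher (10.0%; 5.03%) in KO TAMs than in WT TAMs. Co-culture lowered 3 (15%; 5.66%) and raised 1 (5.00%; 5.89%) in WT cells, and raised 1 in KO cells (5.00%; 2.90%). Gpd2, the mitochondrial glycerol 3-phosphate dehydrogenase that passes electrons to ubiquinone, read 9.22, 9.25 and 9.16 in WT macrophages and 8.46, 8.30 and 8.40 in WT TAMs (-0.82 ± 0.088, 1.77-fold lower, adjusted p = 0.000187). In KO cells it was level between cultures, at 8.70, 8.63 and 8.67 against 8.77, 8.61 and 8.89 (0.094 ± 0.088). It was therefore lower in KO than WT macrophages (-0.54 ± 0.088, adjusted p = 0.00242) but higher in KO than WT TAMs (0.38 ± 0.088, adjusted p = 0.016), and the interaction passed (0.92 ± 0.12, adjusted p = 0.0122). The interaction call was lost without WT macrophage 2 or KO macrophage 3 (up to 0.0557), and the TAM genotype call without KO TAM 3 (0.0635). Coq5, a methyltransferase of ubiquinone synthesis, was lower in WT TAMs than in WT macrophages (-0.44 ± 0.086, adjusted p = 0.00659). The mitochondrial ribosome, which translates the subunits encoded by mitochondrial DNA, had 70 proteins tested, of which 4 were lower (5.71%; 6.13% of all genes) and 1 higher (1.43%; 5.19%) in KO macrophages and 6 lower in KO TAMs than in WT TAMs (8.57%; 7.19%), shares near or below those of all genes.

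Few regulators of these genes were called. Of 16 tested, 1 was lower in WT TAMs than in WT macrophages (6.25%; 5.66% of all genes), 1 lower in KO TAMs than in KO macrophages (6.25%; 3.63%) and 1 higher without CD36 in macrophages (6.25%; 5.19%). In each co-culture comparison 12 of the 16 had lower means in TAMs, and the TAM arrays lay below the macrophage arrays for 5 in WT cells (31.2%; 14.6% of all genes) and 4 in KO cells (25.0%; 14.6%). Ppargc1b, a coactivator of mitochondrial genes, read 5.63, 5.70 and 5.70 in WT macrophages and 5.35, 5.19 and 5.08 in WT TAMs (-0.47 ± 0.10, adjusted p = 0.0118). Polg2, the accessory subunit of the mitochondrial DNA polymerase, read 6.15, 6.34 and 6.53 in WT macrophages, 6.86, 7.04 and 7.20 in KO macrophages and 6.32, 6.67 and 6.30 in KO TAMs (KO against WT macrophages 0.69 ± 0.14, adjusted p = 0.00782; KO TAMs against KO macrophages -0.60 ± 0.14, adjusted p = 0.0243). The second of these calls was lost without KO macrophage 2, KO macrophage 3, KO TAM 1 or KO TAM 3 (up to 0.103). Ppargc1a, the better known coactivator of respiration in muscle and brown fat, read 3.05 to 3.26 on all 12 arrays, near the bottom of the scale. Tfam, which packages and transcribes mitochondrial DNA, differed by -0.42 ± 0.13 in WT TAMs (adjusted p = 0.0571). The factors whose motifs were searched, Nrf1 (-0.20 ± 0.10), Gabpa (0.092 ± 0.11), Yy1 (0.089 ± 0.088) and Esrra (0.16 ± 0.12), did not pass between KO and WT macrophages, nor did the other regulators in any comparison: Pprc1, Gabpb1, Tfb1m, Tfb2m, Polrmt, Polg, Twnk and Sirt3.

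None of 9 isoform genes, tissue or condition-specific forms beside the listed Cox4i1, Sucla2 and Suclg2, passed in any comparison by limma. At an unadjusted p under 0.05 there was 1 of 9 between KO and WT macrophages (24.7% of all genes). Between KO TAMs and KO macrophages there was also 1 of 9 (20.1% of all genes). Most of the tissue or condition-specific forms were low: Cox4i2 read 4.85 to 5.68, Cox7a1 5.11 to 5.53, Cox8b 3.97 to 4.45, Cox6b2 4.58 to 4.98 and Ndufa4l2 3.70 to 4.57 over the 12 arrays. Cox6a2, the heart and muscle isoform of a complex IV subunit, was uneven instead: it read 7.42, 7.04 and 6.81 in WT macrophages, 6.52, 8.40 and 6.45 in WT TAMs, 7.03, 6.81 and 6.87 in KO macrophages and 6.81, 7.73 and 8.49 in KO TAMs. The high arrays were WT TAM 2, KO TAM 2 and KO TAM 3, and no comparison passed (adjusted p from 0.426 upward). Cox4i1, Sucla2 and Suclg2, the listed genes of this group, ranged from 8.90 to 9.23, 8.06 to 8.45 and 8.53 to 9.11.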

How the data were processed

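The deposited table holds linear intensities for 41345 probe sets on 12 arrays, made by the authors with robust multi-array average (RMA) per the submitters' processing notes, which also name limma; their versions, and any genome build, are not stated there. Values ran from 3.574 to 13454.65, and array medians from 31.3 to 33.3. Log2 was taken with no offset. Probe sets with 1 gene symbol in the platform annotation were kept (23521; 1814 named several genes and 16010 none), and the probe set of highest mean stood for each of 22180 genes. Several probe sets were found for 3 listed genes (Cox5b, Cox7b and Suclg2), the other of which lay near the bottom of the scale.

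Group means of all 12 arrays were fitted with limma 3.58.1 in R 4.3.3 (8 residual degrees of freedom), with Benjamini-Hochberg adjustment over all genes and calls at an adjusted p under 0.05. The smallest group size, 3 arrays, limits the precision; the depth of an array has no count. Every listed gene may be named; array values are given for genes called in any comparison, for the 4 of highest mean level and, chosen after their values were seen, for a few uneven genes or partners within a complex, and of each other pathway list up to 4 called genes per comparison, besides all regulators and isoforms. The genes and lists were chosen with earlier results of these data known. Replicate numbers were not used to pair the arrays in the main fit, since the labels do not say what they mark. Alternatives covered scaling, array weights, the log offset, brightness, probe sets, the arrays fitted, the variance model and each array left out.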

Additional observations from a re-analysis of the deposited data

Results flagged for a closer look

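Besides the macrophage marker Fcgr1, Gpd2 was the 1 gene among those named whose response to co-culture differed between genotypes by the test of that difference. On the log2 scale the response of Gpd2 was -0.82 ± 0.088 (SE) in WT cells and 0.094 ± 0.088 in KO cells. The KO difference thus exceeded the WT difference by 0.92 (SE 0.12, adjusted p = 0.0122 by limma over all 22180 genes). All 3 WT TAM arrays (8.46, 8.30 and 8.40) lay below all 3 WT macrophage arrays (9.22, 9.25 and 9.16), while the KO TAM arrays (8.77, 8.61 and 8.89) spanned the KO macrophage arrays (8.70, 8.63 and 8.67). The call was lost without WT macrophage 2 or KO macrophage 3 (adjusted p up to 0.0557).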

How the results depend on the processing

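Over 3655 values of single listed genes under the alternatives, none reversed, 3451 stayed on their side of the threshold, 98 lost and 106 gained a call. Of 23 calls of listed genes, 8 held without any single array and 5 under all settings. Counts of calls among the 43 genes moved as follows, main value first. Calls over all genes moved too, and their counts are given beside them.

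In WT TAMs against WT macrophages, higher calls (1) were 0 with arrays centred on their medians, 2 with array weights, with only the arrays compared, with the replicate block and with log2 of value plus 16, 3 among genes at or above the median level, 4 without WT TAM 2 and KO TAM 1, and 0 to 1 with single arrays left out. Lower calls (4) were 2 with only the arrays compared and 0 to 3 with single arrays left out. Over all genes, higher calls (1306) were 2232 without WT TAM 2 and KO TAM 1 and 688 to 1417 with single arrays left out. Lower calls over all genes (1255) were 1234 with only the arrays compared and 787 to 1254 with single arrays left out.

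In KO TAMs against KO macrophages, higher calls (0) were 1 with array weights, among genes at or above the median level, with log2 of value plus 16 and with eBayes trend and robust. Lower calls (1, Mdh1) were 2 with centred arrays and the brighter genes (Mdh1 and Ndufb5), 2 with array weights and without WT TAM 2 and KO TAM 1 (Ndufb5 and Ndufs8, with Mdh1 lost at adjusted p of 0.0627 and 0.0634), 3 with log2 of value plus 16, 0 with only the arrays compared and with the replicate block, and 0 to 1 with single arrays left out. Over all genes, higher calls (643) were 1213 with array weights. Lower calls over all genes (806) were 1492 with array weights, 271 with only the arrays compared and 310 to 857 with single arrays left out.

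In KO against WT macrophages, higher calls (1) were 4 with array weights, 3 with only the arrays compared and without WT TAM 2 and KO TAM 1, 2 among the brighter genes, 0 with the replicate block and 0 with single arrays left out. Lower calls (9) were 16 with array weights and without WT TAM 2 and KO TAM 1, 14 with only the arrays compared, the brighter genes or log2 of value plus 16, and 5 to 7 with single arrays left out. Over all genes, higher calls (1152) were 2435 with array weights and 608 to 684 with single arrays left out. Lower calls over all genes (1360) were 2488 with array weights, 2388 without WT TAM 2 and KO TAM 1, 2476 with only the arrays compared and 767 to 838 with single arrays left out.

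In KO against WT TAMs, higher calls (0) were 1 with array weights and without WT TAM 2 and KO TAM 1, and 0 to 1 with single arrays left out. Lower calls (7) were 3 with centred arrays, 13 with array weights, 0 with only the arrays compared, 12 among the brighter genes and without WT TAM 2 and KO TAM 1, 11 with log2 of value plus 16 and with eBayes trend and robust, and 3 to 10 with single arrays left out. Over all genes, lower calls (1594) were 2645 with array weights, 2611 without WT TAM 2 and KO TAM 1 and 464 with only the arrays compared. With centred arrays they were 1437, and with single arrays left out 1078 to 2095. Of the other genes named, Me1, Gpd2, Uqcrh and Pdk4 also lost their TAM genotype calls with only the arrays compared. For the interaction, lower calls (0) were 1 without WT TAM 2 and KO TAM 1, where lower calls over all genes (20) were 839.

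Over all groups together, replicate numbers showed no clear pairs: deviations of arrays with the same number correlated at -0.056 to 0.27 (18 pairs), those with different numbers at -0.28 to 0.071 (36 pairs), and 4 of 12 arrays correlated best with their own number. Between WT and KO TAMs alone, arrays with the same number correlated at 0.033 to 0.27 (2 of 3 above 0.1) and those with different numbers at -0.28 to 0.071 (4 of 6 below 0); the block left 7 lower calls there. What the number marks among the TAM arrays is not given by the labels. The replicate block left 8 of 9 lower calls between macrophages. The cause of the changes above was not tested. Signals near the bottom of the scale, as for Ppargc1a, set no level.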

Other observations

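Of 70 proteins of the mitochondrial ribosome, 4 were lowered (5.71%; 5.66% of all genes) and 2 raised (2.86%; 5.89%) by co-culture of WT cells, and 1 was lowered (1.43%; 3.63%) in KO cells. By the order of the arrays more of them leaned down: TAM arrays lay below macrophage arrays for 21 in WT cells (30.0%; 14.6% of all genes) and for 17 in KO cells (24.3%; 14.6%), and above for 11 (15.7%; 15.5%) and 1 (1.43%; 11.7%). Mean differences were below 0 for 48 of 70 in KO cells after co-culture and for 51 of 70 in KO TAMs against WT TAMs, where 15 lay below without overlap (21.4%; 11.8% of all genes). Mrpl45, a large-subunit protein, read 9.38, 9.50 and 9.39 in WT macrophages and 8.34, 8.67 and 8.28 in WT TAMs (-0.99 ± 0.17, log2 difference ± SE, adjusted p = 0.00242 by limma). Mrpl3 read 8.68, 8.53 and 8.69 against 7.93, 7.82 and 7.90 (-0.75 ± 0.16, adjusted p = 0.0101). Mrpl54 read 9.25, 9.09 and 9.05 in WT macrophages, 8.61, 8.38 and 8.75 in WT TAMs, 8.44, 8.36 and 8.51 in KO macrophages and 8.04, 8.10 and 8.39 in KO TAMs, so WT macrophages were above all other groups. Its difference was -0.69 ± 0.12 between KO and WT macrophages (adjusted p = 0.00316) and -0.55 ± 0.12 between WT TAMs and WT macrophages (adjusted p = 0.0098), and the latter call was lost without WT macrophage 1 (0.0512).

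Genes of ubiquinone synthesis did not move together. Coq3, a methyltransferase, read 6.82, 6.81 and 6.78 in WT and 6.17, 6.32 and 6.33 in KO macrophages (-0.53 ± 0.12, adjusted p = 0.0131), a call lost without KO macrophage 1 (0.0588), while Coq2, the prenyltransferase, read 6.75, 7.06 and 6.71 against 7.26, 7.12 and 7.58 (0.48 ± 0.14, adjusted p = 0.0459; lost without WT macrophage 1, WT macrophage 3, KO macrophage 1 or KO macrophage 3, up to 0.166). In TAMs the hydroxylase Coq7 was lower without CD36 (7.03, 6.93 and 7.005 against 6.62, 6.53 and 6.63, -0.40 ± 0.086, adjusted p = 0.0112) and the atypical kinase Coq8a higher (5.37, 5.23 and 5.42 against 5.61, 5.88 and 6.12, 0.53 ± 0.12, adjusted p = 0.0141). Both TAM calls were lost when the 6 TAM arrays were fitted alone.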
